A study of Mus musculus with 15 samples.

Results

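The genes described here are the transcription factors of the Tfeb family and the Rag GTPases that control them at the lysosome: Tfeb, Tfe3 and Mitf, the GTPases Rraga, Rragb, Rragc and Rragd, and the folliculin complex genes Flcn, Fnip1 and Fnip2. Members were all probe sets that the array platform annotates with 1 of these 10 gene symbols. These were 16 probe sets of 45101 on the array, for 9 of the 10 genes and of 18194 gene symbols in all, and Rragb had none with that symbol. The set was chosen by the signal of Tfeb and Rragd, which differed strongly between withdrawal and maintained cultures, so their values in that comparison are a description and carry no test. Of the 16 probe sets, 13 passed a filter on dim signals, with at least 1 for each of the 9 genes. The 3 that did not pass belonged to Mitf, Rragd and Flcn.

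TFEB, TFE3 and MITF are related helix-loop-helix factors that switch on genes of lysosomes and autophagy. When amino acids are plentiful, a Rag dimer, RagA or RagB paired with RagC or RagD, holds the kinase complex mTORC1 at the lysosome surface, where it phosphorylates TFEB and keeps it in the cytoplasm. Folliculin, bound to FNIP1 or FNIP2, acts on RagC and RagD as a GTPase-activating protein. In other mouse tissues Rragd is itself a known target gene of TFEB and TFE3, which closes a feedback loop.

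RNA came from cultured spermatogonial stem cells of C57BL/6 male mice aged 6 days, the germline stem cells of the testis. They grew in serum-free medium with bFGF, GDNF and soluble GFRalpha1, the co-receptor through which GDNF reaches the RET kinase. Withdrawal cultures spent 18 h without GDNF and GFRalpha1, replacement cultures received both again after that time for 2, 4 or 8 h, and maintained cultures had them throughout. There were 15 arrays, 3 in each of the 5 groups. No group stayed off the factors for longer than 18 h, and none was treated like the replacement groups but without them, so their return cannot be told apart from handling or added time. The labels do not call the replicates separate cultures, so p-values measure the spread between arrays, which may be technical. Values are MAS5 signal, an intensity in arbitrary units, and a difference in level between probe sets is not read as a difference in RNA amount. Sums of marker signals below compare groups only, and bright probe sets weigh most in them. Differences are limma estimates of log2(signal + 16) from 1 fit of all 5 groups, called at an adjusted p under 0.05 over 13083 genes.

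All 9 spermatogonial markers examined passed the filter on dim signals. On withdrawal against maintained cultures Zbtb16 was called higher and Gfra1 and Itga6 lower, the others not. Withdrawal replicate 3 stood apart in RNA quality: its 3′ to 5′ ratio of actin probe sets was 2.77, against 1.10 to 1.75 on the other 14 arrays. The second highest, 1.75, was 4 h replicate 3. Markers of other cells differed between groups in summed signal. The summed signal of 8 mast cell markers was 1774 to 2429 in withdrawal, 2130 to 3377 at 2 h, 3506 to 4086 at 4 h, 3194 to 5167 at 8 h and 1366 to 1724 in maintained cultures. That of 7 fibroblast markers was 2780 to 4201, 1546 to 3003, 5673 to 6785, 5469 to 6640 and 2524 to 3867 in the same order, and that of 4 Leydig cell markers 213 to 219, 148 to 207, 283 to 363, 272 to 402 and 131 to 252. Of the mast cell and fibroblast markers, Hdc and Lum failed the filter on dim signals and the other 13 passed. Star and Cyp11a1 passed among the Leydig cell markers. Cyp11a1 averaged 58.2 in withdrawal and 164 at 8 h, while Star averaged 110 and 116. Col3a1, the brightest fibroblast marker, averaged 1484 in withdrawal and 3091 at 8 h. In bulk RNA, fewer cells of a type and less RNA per cell cannot be told apart.

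Promoters are shown because the family's factors bind a short palindrome, CACGTG, and the members differ in whether it lies near their start. RefSeq's promoter table for GRCm38.p6 held 15 windows for the 10 genes, each 300 bases long, with 250 before the annotated start and 50 after it. The windows of Rragd and Tfeb, the genes with the largest differences, are set beside those of Rragc and Fnip1, which hold the palindrome; it is in capitals, and each sequence runs 5′ to 3′ on the gene's strand.
Rragd, chr4:32982748-32983047, plus strand: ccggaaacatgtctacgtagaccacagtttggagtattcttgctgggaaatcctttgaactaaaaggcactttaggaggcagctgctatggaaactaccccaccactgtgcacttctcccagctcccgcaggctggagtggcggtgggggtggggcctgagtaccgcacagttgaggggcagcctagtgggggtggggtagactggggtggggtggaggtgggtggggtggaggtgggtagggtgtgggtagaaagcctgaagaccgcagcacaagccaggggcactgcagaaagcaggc
Tfeb, first of 3 starts, chr17:47736787-47737086, plus strand: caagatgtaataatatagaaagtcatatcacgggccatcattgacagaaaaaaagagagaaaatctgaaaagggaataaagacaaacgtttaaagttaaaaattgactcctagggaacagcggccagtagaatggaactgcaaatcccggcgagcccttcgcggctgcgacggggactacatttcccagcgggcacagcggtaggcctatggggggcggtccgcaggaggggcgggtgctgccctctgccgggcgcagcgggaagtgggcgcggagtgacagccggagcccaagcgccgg
Rragc, chr4:123917183-123917482, plus strand: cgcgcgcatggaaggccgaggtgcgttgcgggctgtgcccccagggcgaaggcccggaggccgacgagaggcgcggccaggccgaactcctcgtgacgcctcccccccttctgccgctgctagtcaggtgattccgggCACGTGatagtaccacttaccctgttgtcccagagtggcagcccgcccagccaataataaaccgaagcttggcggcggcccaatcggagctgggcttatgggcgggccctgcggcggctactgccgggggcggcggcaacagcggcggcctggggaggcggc
Fnip1, chr11:54437929-54438228, plus strand: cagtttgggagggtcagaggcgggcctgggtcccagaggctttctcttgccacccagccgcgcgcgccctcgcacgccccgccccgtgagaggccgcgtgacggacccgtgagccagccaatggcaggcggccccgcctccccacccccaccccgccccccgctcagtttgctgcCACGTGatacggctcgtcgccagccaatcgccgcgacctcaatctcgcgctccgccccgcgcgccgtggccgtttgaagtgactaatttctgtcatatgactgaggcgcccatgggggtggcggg
CACGTG was found once in Rragc, 112 bases before the start, once in Fnip1, 75 bases before it, and 3 times in Rragb, 127, 36 and 3 bases before it. The Rragd window and all 3 Tfeb windows held none. Both strands were searched, and 7.15% of 32851 mouse promoter windows held it. The longer TCACGTG, which contains it, lay in the same 3 member windows and in 3.77% of all windows. CATGTG, a form that MITF binds, was in none of the 15 and in 14.2% of all. A match describes letters only, and none shows that a factor bound there. A window without a match does not show that the gene lacks one, since nothing beyond its 300 bases was searched.

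Tfeb had its lowest group mean after withdrawal and its highest in maintained cultures. Its probe set, 1422566_at, gave 81.7, 37.1 and 133 on the withdrawal arrays, 170.0, 127 and 203 at 2 h, 196, 194 and 44.4 at 4 h, and 138, 215 and 177 at 8 h, against 446, 358 and 394 on the maintained arrays. Every maintained array was above every array of the other 4 groups. Withdrawal and maintained cultures averaged 84.0 ± 48.1 and 399 ± 44 (SD, n = 3 each), a log2 difference of -2.17 with a standard error of 0.40, or 4.50-fold lower. Without withdrawal replicate 3 it was -2.52.

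Replacement cultures averaged between these levels of Tfeb. At 8 h it averaged 177 ± 38.4, a log2 difference of 1.05 from withdrawal, 2.07-fold, with the arrays of the 2 groups apart by a narrow margin (138 against 133). Against maintained cultures the 8 h arrays were 2.17-fold lower, again without overlap. The 4 h group spread most, since replicate 3 gave 44.4 beside 196 and 194; the actin ratio of that array was the second highest, and its part in this low value was not tested. The neighbours 2 h, 4 h and 8 h overlapped in signal. The 8 h and 2 h groups shared no array with the contrast that chose Tfeb, although the spread in the fit comes from all 5 groups. There the log2 difference was 0.08, with a 95% interval of -0.76 to 0.92 (limma adjusted p = 0.957), which leaves room for a change of either sign. This sign turned negative with arrays shifted to 1 median or without the second replicate of either group.

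Rragd, which encodes RagD, had its highest group mean after withdrawal and its lowest in maintained cultures. Probe set 1434909_at gave 959, 1282 and 1196 on the withdrawal arrays, 838, 937 and 614 at 2 h, 707, 629 and 806 at 4 h, and 438, 550 and 405 at 8 h, against 226, 280 and 266 on the maintained arrays. Every withdrawal array was above all others, and every maintained array below all others. The 2 h and 4 h groups overlapped, while the 8 h group lay below both. Withdrawal averaged 1146 ± 167 and maintained cultures 257 ± 27.7 (SD, n = 3 each), a log2 difference of 2.08 with a standard error of 0.17, or 4.24-fold higher. Without withdrawal replicate 3 it was 2.05.

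**Figure D1:**
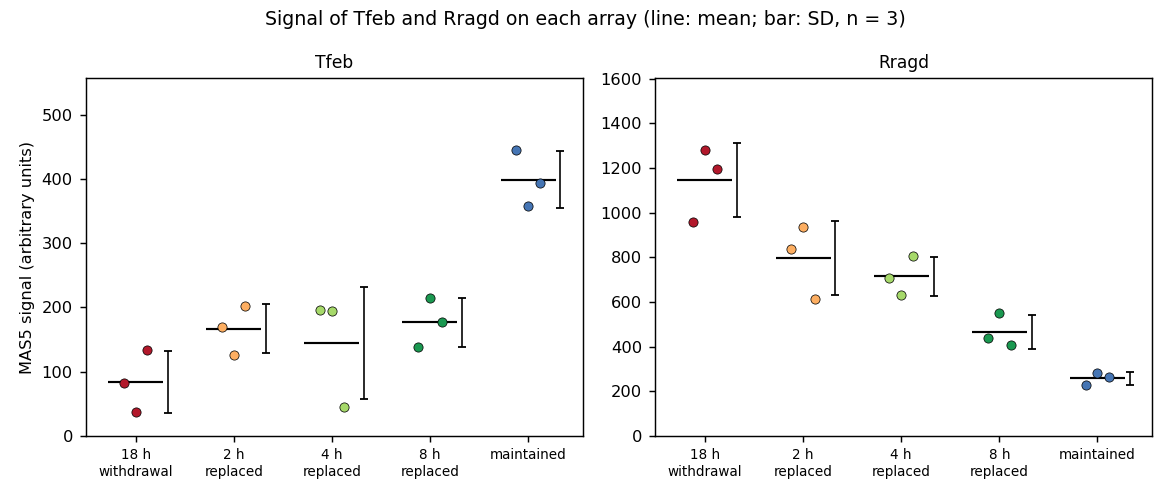
MAS5 signal in arbitrary units (y axis, from 0) of Tfeb, left, and Rragd, right, on each of the 15 arrays (points) in the 5 groups (x axis); lines are means and bars SDs of 3 arrays. Maintained cultures sit above all other arrays for Tfeb and below all others for Rragd, and the 4 h array of Tfeb at 44.4 lies apart from its group.

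The mean signal of Rragd was lower at each later time after the factors came back. The log2 difference from withdrawal was -0.53 at 2 h, -0.67 at 4 h and -1.28 at 8 h, the last a 2.42-fold difference. These 3 contrasts share the withdrawal arrays that chose the gene, so they are given without a test. At 8 h the level was still 1.75-fold above maintained cultures, with no overlap. Between 8 h and 2 h, which share no array with the choice, Rragd fell by 0.75 on the log2 scale with a standard error of 0.17, or 1.68-fold (limma adjusted p = 0.0321). The 3 arrays at 8 h were all below the 3 at 2 h. The fit takes its spread from all 5 groups, so this p also draws on the withdrawal and maintained arrays that chose Rragd. The 8 h against 2 h call held in 19 of 27 alternative settings, with adjusted p between 0.00204 and 0.368. It was lost without 2 h replicate 1 (0.0999), 2 h replicate 2 (0.15), 8 h replicate 1 (0.109) or 8 h replicate 3 (0.144). Over the same contrast 5 of 6 tested fibroblast markers and 1 of 2 tested Leydig cell markers, Cyp11a1 (1.29, limma adjusted p = 0.0259), were called higher. None of 7 mast cell markers was called by limma there, and 4 had an unadjusted p under 0.05. The part of these cells in the fall of Rragd was not tested.

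The call rests on 1 of the 3 Rragd probe sets. Probe set 1431164_at gave 114, 149 and 18.4 in withdrawal, 108, 154 and 30.5 at 2 h, 138, 34.1 and 30.7 at 4 h, and 72.2, 20.4 and 82.1 at 8 h, against 42.9, 15.9 and 25.3 in maintained cultures. Single arrays differed several-fold within each of the first 4 groups, and the withdrawal array at 18.4 is the one with the high actin ratio. Its withdrawal minus maintained difference was 1.08 with a standard error of 0.62, and no contrast was called. Probe set 1440555_at lay at 5.7 to 39.4 on all arrays and failed the filter. With the mean of the 2 probe sets that passed, the 8 h against 2 h difference was -0.65 and not called (adjusted p = 0.368).

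**Figure D2:**
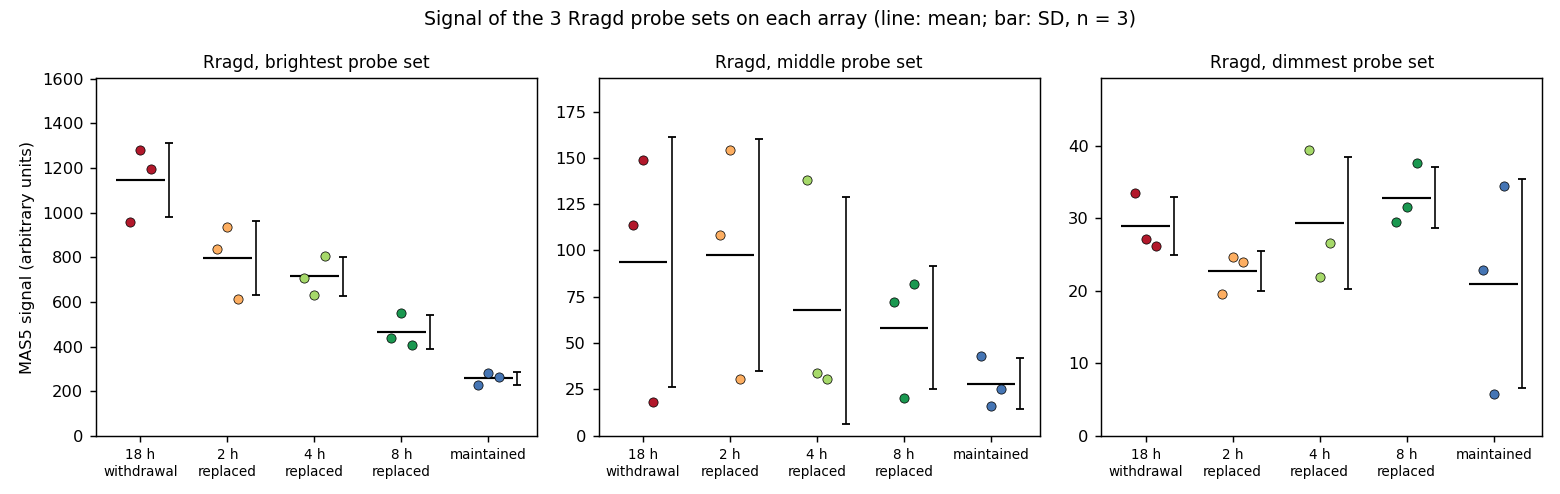
MAS5 signal in arbitrary units (y axes, each from 0 on its own scale) of the 3 Rragd probe sets on every array (points) in the 5 groups (x axis), with group means (lines) and SDs of 3 arrays (bars). The brightest probe set separates withdrawal from maintained arrays, the middle one overlaps in all groups, and the dimmest stays under 40 on every array.

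The other 2 factors of the family were called in none of the 6 comparisons. Tfe3, whose protein is regulated like TFEB, gave 316, 256 and 340 in withdrawal, 306, 287 and 263 at 2 h, 370, 344 and 350 at 4 h, and 258, 314 and 268 at 8 h, against 255, 265 and 263 in maintained cultures. The 4 h arrays were the highest, by a narrow margin over withdrawal (344 against 340). The 4 h minus withdrawal difference was 0.22, with an interval of -0.05 to 0.49 (limma adjusted p = 0.351), so Tfe3 was not called there. In withdrawal against maintained cultures its difference was 0.20 with a standard error of 0.13.

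Mitf, the master factor of melanocytes and also active in mast cells, was dim. Probe set 1455214_at averaged 38.6 ± 15.9 in withdrawal, 33.4 ± 6.89 at 2 h, 36.6 ± 14.9 at 4 h, 55.5 ± 13 at 8 h and 41.1 ± 5.61 in maintained cultures (SD, n = 3 each). It gave 55.2, 42.6 and 68.6 at 8 h, against 35.0, 25.9 and 39.4 at 2 h, without overlap and without a call (log2 difference 0.53, limma adjusted p = 0.378). The second Mitf probe set, 1422025_at, was at 1.6 to 19.8 and failed the filter. Of 8 melanocyte markers, 5 passed the filter and none was called by limma in any of the 6 comparisons, with at most 1 at an unadjusted p under 0.05, while the summed mast cell signal was 3194 to 5167 at 8 h, against 2130 to 3377 at 2 h; their part in the Mitf signal was not tested. Tfec, the fourth relative, lay at 0.8 to 4.1 on all 15 arrays and failed the filter.

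Rragc, which encodes RagC, differed most at 4 h. It gave 515, 637 and 670 at 4 h, against 409, 329 and 423 in withdrawal, with no overlap. The other groups gave 386, 475 and 416 at 2 h, 475, 550 and 508 at 8 h, and 479, 441 and 394 in maintained cultures. Rragc rose 1.55-fold at 4 h over withdrawal, a log2 difference of 0.63 with a standard error of 0.14 (limma adjusted p = 0.0294). At 8 h the difference from withdrawal was 0.39 and not called (adjusted p = 0.166), although the arrays did not overlap.

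The 4 h call on Rragc held in 21 of 27 alternatives, and the difference was 0.69 without withdrawal replicate 3 (limma adjusted p = 0.0195). It was lost without withdrawal replicate 1 (0.0542), withdrawal replicate 2 (0.0872), 4 h replicate 2 (0.123) or 4 h replicate 3 (0.108), in a fit of the 2 groups alone (0.186) and with every probe set on its own (0.051). At 4 h, 3 of 6 tested fibroblast markers and 2 of 7 mast cell markers were also called higher than in withdrawal. Their part in the Rragc result was not tested. Within the 4 h group Rragc was 515, 637 and 670 at actin ratios of 1.12, 1.52 and 1.75. Withdrawal replicate 3, with a ratio of 2.77, gave 423, beside 409 and 329 on the other withdrawal arrays. The part of RNA quality in the Rragc result was not tested either.

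Rraga, which encodes RagA, gave 569, 585 and 290 in withdrawal, 750, 740 and 626 at 2 h, 667, 571 and 432 at 4 h, and 647, 723 and 705 at 8 h, against 668, 607 and 531 in maintained cultures. The withdrawal array at 290 is replicate 3, which had the high actin ratio. All arrays at 2 h and at 8 h were above all withdrawal arrays, with log2 differences of 0.60 and 0.57, neither called (limma adjusted p = 0.476 and 0.187). Without withdrawal replicate 3 these differences were 0.28 and 0.25. The part of RNA quality in this gap was not tested.

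**Figure D3:**
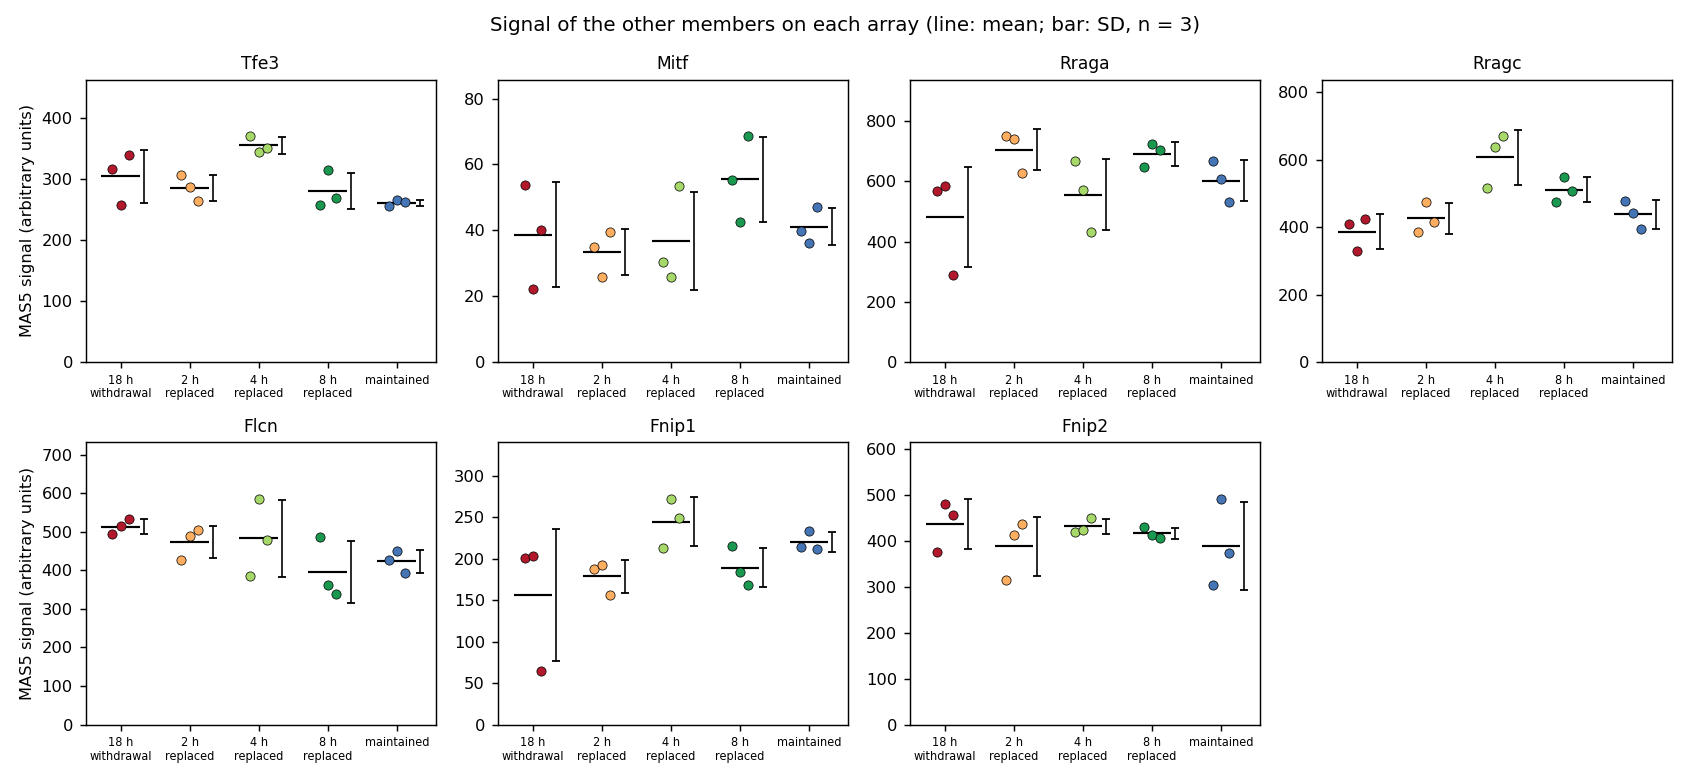
MAS5 signal in arbitrary units (y axes, each from 0 on its own scale) of the other members by group (x axis), 3 arrays each (points), with means (lines) and SDs (bars). Rragc is highest at 4 h, at 515 to 670, and single withdrawal arrays lie low for Rraga, at 290, and Fnip1, at 65.0.

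Folliculin and its partners showed no called change. Flcn probe set 1438167_x_at gave 493, 514 and 532 in withdrawal, 428, 488 and 505 at 2 h, 385, 585 and 479 at 4 h, and 486, 362 and 339 at 8 h, against 427, 449 and 392 in maintained cultures. The withdrawal arrays were above the maintained ones and above those at 8 h. The 8 h minus withdrawal difference was -0.38, with an interval of -0.71 to -0.05 (limma adjusted p = 0.249). The probe set 1423663_at gave -0.02 in that contrast, and 1456744_x_at, at 9.6 to 32.7, failed the filter.

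Fnip1, a folliculin partner, was read by 3 probe sets that passed the filter, with different values. The brightest, 1449668_s_at, gave 202, 203 and 65.0 in withdrawal, 187, 193 and 156 at 2 h, 214, 272 and 249 at 4 h, and 215, 185 and 169 at 8 h, against 215, 234 and 212 in maintained cultures. The 4 h arrays were above the withdrawal arrays, by 0.73 on the log2 scale, without a call (limma adjusted p = 0.146), and by 0.25 without withdrawal replicate 3, whose signal was 65.0. In withdrawal against maintained cultures the 3 probe sets gave -0.59, -0.14 and 0.11. For Fnip2, the other partner, withdrawal averaged 436 ± 54.0, 2 h 388 ± 64.2, 4 h 431 ± 16.2, 8 h 416 ± 12.2 and maintained cultures 389 ± 95.2 (SD, n = 3 each). No contrast of Fnip2 or of any Fnip1 probe set was called.

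Set against all genes, the count of members called was as follows. In withdrawal against maintained cultures 2 of 9 were called, Tfeb lower and Rragd higher, where 8.04% of all genes were called; that contrast chose them, so nothing is read from this count. The next 3 comparisons share the withdrawal arrays with the choice of Tfeb and Rragd, and 8 h against maintained cultures shares the maintained arrays, so calls on these 2 genes there are counted as a description only. At 2 h against withdrawal limma called 0 of 9, against 0.115% of all genes. Rraga, Rragd and Tfeb, 3 genes, had an unadjusted p under 0.05 there, which is not set against that share of adjusted calls. At 4 h against withdrawal 2 of 9 were called, Rragc, which the choice did not use, higher and Rragd lower, beside 2.64% of all genes. At 8 h Rragd was the 1 member called in each of the 3 comparisons, where 2.39% of all genes were called against withdrawal, 0.482% against maintained cultures and 1.85% against 2 h. Of the 3, only 8 h against 2 h compares neither group that chose Rragd, though its spread is estimated from all 5 groups. The call against maintained cultures was lost on leaving out any 1 maintained or 8 h array, 2 h replicate 1 or 4 h replicate 3. The count at 4 h was 0 without withdrawal replicate 2, 4 h replicate 2 or 4 h replicate 3, and 1 without maintained replicate 3, withdrawal replicates 1 or 3, 2 h replicates 1 or 2, 4 h replicate 1 or 8 h replicates 1 or 3. With every probe set tested on its own, 4.42%, 0.0407%, 0.877%, 1.03%, 0.192% and 0.807% of 27022 probe sets were called in the 6 comparisons in this order; of the 13 member probe sets the calls were Tfeb and Rragd on withdrawal and Rragd at 8 h against withdrawal, and none in the other 4, where 3, 3, 2 and 1 of the 13 had an unadjusted p under 0.05. The shares of all genes and of all probe sets at an unadjusted p under 0.05 are not given here, so nothing is read from the unadjusted counts. Since 2 genes were picked for their size, these counts of members say nothing about the family as a whole. Groups of arrays that did not overlap were common: 26.8% of all genes in withdrawal against maintained cultures, 14.6% at 2 h, 21.4% at 4 h and 21.5% at 8 h against withdrawal, 26.6% at 8 h against maintained cultures and 25.6% at 8 h against 2 h.

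**Figure D4:**
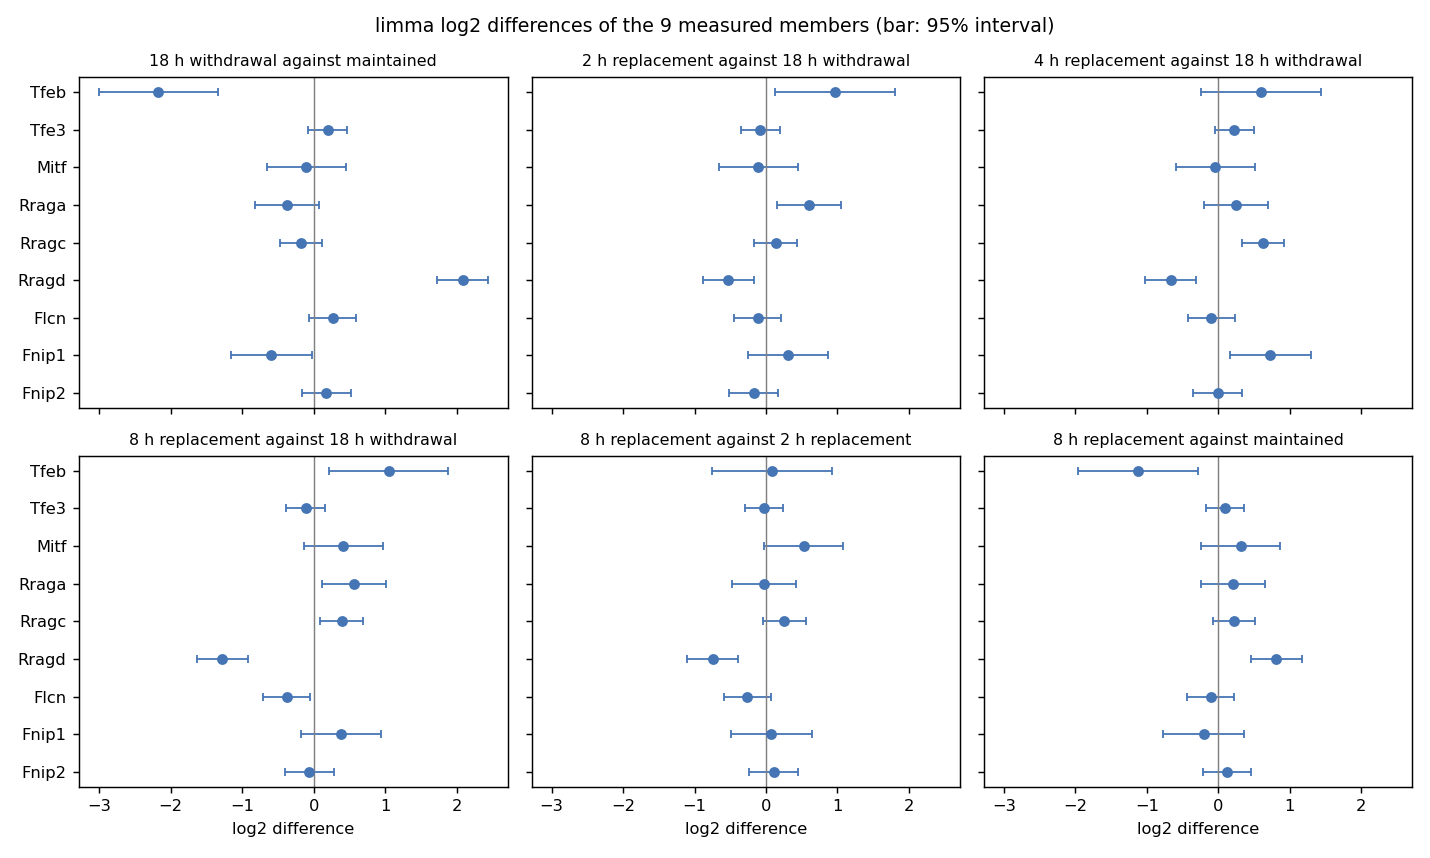
Log2 differences of log2(signal + 16) for the 9 measured members in the 6 comparisons, first named group minus the second, as points with 95% intervals from the limma fit. Tfeb at -2.17 and Rragd at 2.08 lie far from 0 in withdrawal against maintained cultures, where they were chosen, and Rragc at 0.63 lies above 0 at 4 h against withdrawal.

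The genes most like Tfeb over the 15 arrays, by Pearson's r of log2(signal + 16), were Pip4k2a (0.90), Mmd (0.88), Mapk12 (0.87), Slc38a1 (0.87) and Ppp1ca (0.87). Those most like Rragd were Zmym3 (0.98), Camk2n1 (0.97), Bnc2 (0.97), Rspo1 (0.94) and Sertad4 (0.93). Zmym3 averaged 819 in withdrawal, 597 at 2 h, 484 at 4 h and 275 at 8 h, against 124 in maintained cultures, the same order of groups as Rragd. Tfeb and Rragd themselves had an r of -0.81, while Tfe3 had 0.51 with Rragd and -0.28 with Tfeb. Tfeb and Rragd were chosen for their differences between withdrawal and maintained arrays, which are among the 15 points. A negative r between them is thus in part fixed by that choice. The points share their 5 groups and the fit's scaling, so these values describe the pattern and carry no test.

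Beyond the members, 104 of 114 listed genes of the same pathway were tested. In withdrawal against maintained cultures 6 were called higher and 7 lower, 12.5% of them beside 8.04% of all genes, and their median log2 difference was 0.10 beside 0.06 over all genes. The lists were chosen with earlier results of these data known. Nothing is therefore read from the gap between these shares, and the calls on single listed genes are a description. The amino acid sensor gene Castor1 was among those that fell: 262 ± 4.25 in withdrawal and 479 ± 25.4 in maintained cultures (SD, n = 3 each; log2 difference -0.83, limma adjusted p = 0.000499). Deptor, an inhibitor bound to mTOR, also fell, with 106 ± 20.7 in withdrawal and 233 ± 17.4 in maintained cultures (-1.04, limma adjusted p = 0.00307). The proton pump subunit Atp6v1b2 rose, with 1064 ± 71.2 in withdrawal and 641 ± 109 in maintained cultures (0.73, limma adjusted p = 0.00591). These 3 kept their call whichever array was left out. Castor1 and Deptor were called in all 27 alternatives, while Atp6v1b2 lost its call in a fit of the 2 groups alone (adjusted p = 0.0571) and on averaging its probe sets (0.0697).

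The other 10 pathway calls each ended without at least 1 array. Those called higher were Depdc5 (0.77), a subunit of GATOR1, the brake on RagA, Wdr24 (0.72) of GATOR2, which opposes that brake, Rptor (0.52), the mTORC1 scaffold that Rag dimers bind, Naglu (0.68), a lysosomal enzyme, and Vps33a (0.59), a vesicle tethering protein. Those called lower were Bmt2 (-0.91), the sensor of S-adenosylmethionine, Rheb (-0.60), the GTPase that activates mTORC1, the pump subunits Atp6v1d (-0.52) and Atp6v1f (-0.49), and Uvrag (-0.45), an autophagy gene. Without withdrawal replicate 3 the adjusted p was 0.17 for Depdc5, 0.0849 for Wdr24, 0.0614 for Bmt2, 0.0881 for Rheb, 0.0831 for Naglu, 0.11 for Vps33a and 0.071 for Uvrag. Without maintained replicate 3 it was 0.0742 for Rptor, 0.0506 for Atp6v1d and 0.0517 for Atp6v1f. Maintained replicates 1 and 2, withdrawal replicates 1 and 2, and for Depdc5 also single replacement arrays, ended some of these calls too. The Depdc5 call ended in 8 of the 15 fits that each left out 1 array, and the highest adjusted p of these 10 genes in such fits was 0.17. Over all 27 alternatives the calls held in 12 for Depdc5, 17 for Vps33a, 20 for Naglu, 21 for Bmt2, 22 for Rheb and Uvrag, 23 for Wdr24, Rptor and Atp6v1f, and 25 for Atp6v1d. The fit of the 2 groups alone ended all 10. With the mean of its probe sets the difference was 0.19 for Depdc5 (adjusted p = 0.518) and 0.18 for Rptor (0.566).

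By gene group, calls in withdrawal against maintained cultures were spread over several lists. Of 9 tested genes of mTORC1 and its TSC brake 1 was called higher, Rptor, and 2 lower, Deptor and Rheb. Of 7 amino acid sensor genes 2 were called lower, Castor1 and Bmt2, although 4 of the 7 differences were above 0, with a median of 0.36. Of 3 GATOR1 genes 1 was called higher, and so was 1 of 5 GATOR2 genes. In the same contrast none of 5 Ragulator subunits, which anchor the Rag dimers, was called, none of 5 tested AMPK subunits, none of 2 genes of KICSTOR, which docks GATOR1, and none of 4 genes of calcineurin, the phosphatase that acts on TFEB, and lysosomal calcium. Of 2 other known target genes of the family none was called. At an unadjusted p under 0.05 these lists held 1 AMPK gene, Prkab1, and 1 calcineurin gene, Ppp3ca, and no other. Of 26 tested genes for lysosomal enzymes and membrane proteins 1 was called, and of 21 autophagy genes 2, 1 in each direction. Of 15 proton pump genes 1 was called higher and 2 lower. At an unadjusted p under 0.05 these last 3 lists held 7 of 26, 6 of 21 and 5 of 15 genes, and all lists together 33 of 104. The share of all genes at that unadjusted p is not given here, so nothing is read from these counts either. At 2 h against withdrawal limma called 0 of the 104, with 7 at an unadjusted p under 0.05, beside 0.115% of all genes called. At 8 h against maintained cultures it called 0, beside 0.482% of all genes called. There 23 had an unadjusted p under 0.05, which is not set against that share of adjusted calls. Of these, 9 were genes for lysosomal enzymes and membrane proteins. In that list 21 of 26 differences were above 0, with a median of 0.30 beside 0.06 over all genes. The shares of all genes above 0 or at that unadjusted p are not given here, so nothing is read from these counts. Shifting arrays to 1 median moved the median of all genes by -0.15 in this comparison. There 4 of 7 tested mast cell markers, 1 of 6 fibroblast markers and 1 of 2 Leydig cell markers were called higher. Their part in the values of the lysosomal list was not tested. The other 3 comparisons each had 1 gene called higher, 0.962% of the 104, beside 2.64% of all genes at 4 h against withdrawal, 2.39% at 8 h against withdrawal and 1.85% at 8 h against 2 h. They were Ctsl, a lysosomal protease, at 4 h against withdrawal (0.60, limma adjusted p = 0.0314), Castor1 at 8 h against withdrawal (0.52, adjusted p = 0.03) and Tpp1, another lysosomal protease, at 8 h against 2 h (1.00, adjusted p = 0.0116). Each of these calls also ended without 1 array: Ctsl without withdrawal replicates 1 or 2 or 4 h replicates 2 or 3 (up to 0.129), Castor1 without withdrawal replicates 1 or 2 or any 8 h array (up to 0.119), and Tpp1 without 2 h replicate 3 or 8 h replicate 2 (up to 0.0729). Ctsl was also lost in the fit of the 2 groups alone (0.208) and with quantile normalization (0.0645), Castor1 with the 2 groups alone (0.0967), arrays shifted to 1 median (0.114) and every probe set on its own (0.0535), and Tpp1 with the mean of its probe sets (0.0653). In the comparisons of Ctsl, Castor1 and Tpp1, 3, 3 and 5 of 6 tested fibroblast markers were called higher. So were 2, 3 and 0 of 7 mast cell markers. The part of these cells in the 3 calls was not tested.

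**Figure D5:**
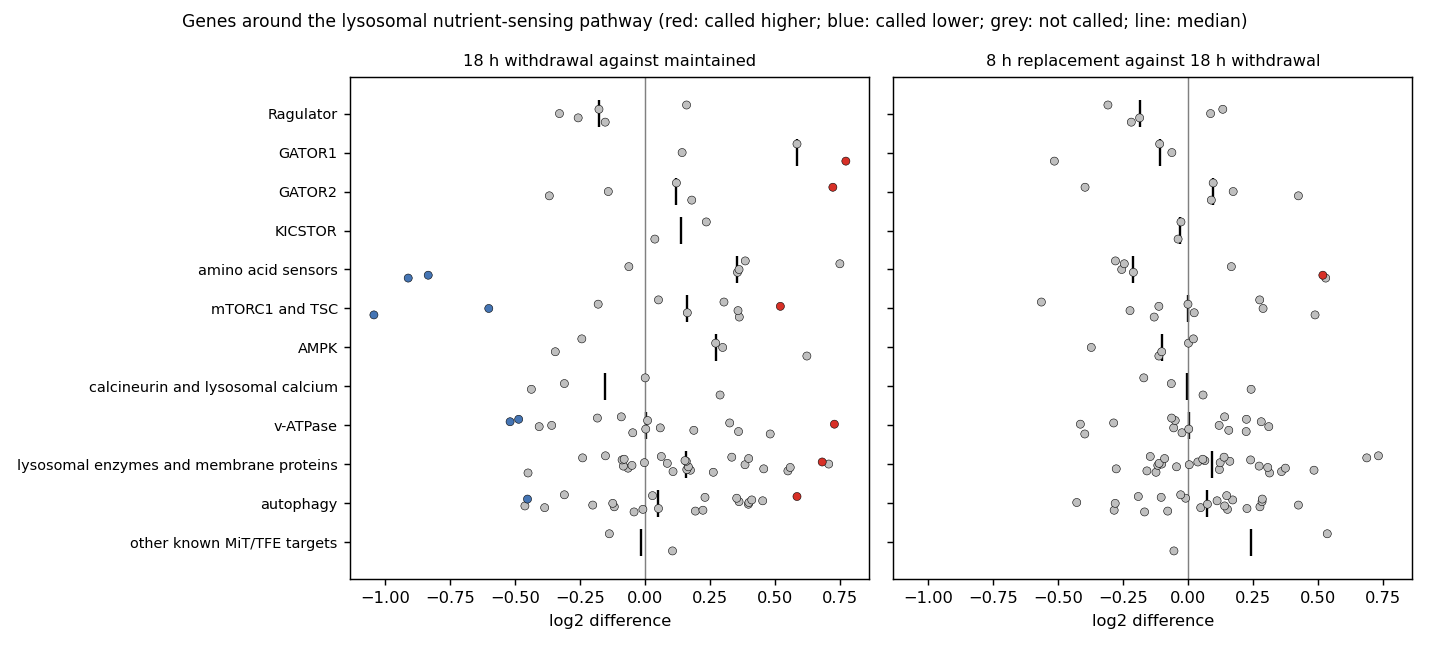
Log2 differences of log2(signal + 16) of the 104 tested pathway genes (points), by gene group, in withdrawal against maintained cultures (left) and at 8 h of replacement against withdrawal (right); red is called higher, blue called lower, grey not called, and short lines are medians. On the left the called genes fall on both sides of 0, 6 higher and 7 lower, and on the right Castor1 alone is called.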

How the data were processed

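RNA from 15 samples of cultured spermatogonial stem cells was read on Affymetrix arrays with a single colour; the labels put the samples, each with its own array, into 5 groups. Per the submitters' processing notes, the authors computed MAS5 signal, so the deposited values are an intensity on a linear scale. The version of MAS5 and its scaling target are not known here; the trimmed mean over the middle 96% of probe sets was 150.0 on every array. The number of arrays limits the precision. Here signals were transformed to log2(signal + 16), the 64 control probe sets and the dimmest 40% (those below 30.5) were removed, and where a gene had several probe sets the one with the highest mean log2 value stood for it. Probe sets were named from the platform annotation: 34958 had 1 symbol, 932 several and 9211 none, and RefSeq changed 0 of the symbols. Group means were fitted with limma 3.58.1 in R 4.3.3 (variance trend, 10 residual degrees of freedom), two-sided, with Benjamini-Hochberg adjustment over the genes of a comparison. An exact permutation test of 3 against 3 arrays cannot go below p = 0.1 and was not used.

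The rule for naming genes took all members, up to 4 called genes of each pathway list in each comparison, Tfec, and the 5 genes most correlated with Tfeb and with Rragd. Members and lists were chosen with earlier results of these data known. Promoters came from RefSeq's table for GRCm38.p6. Alternatives changed the constant, filter, scaling, choice of probe set, variance model and samples. The main fit did not pair arrays by replicate number. Of 30 same-numbered pairs, 7 had deviations that correlated over 0.1 (range -0.15 to 0.363). Between 4 h and maintained cultures these were 0.363, 0.257 and -0.026, beside a mean of -0.1 for differently numbered pairs. Between 2 h and withdrawal they were 0.046, 0.192 and 0.254, beside -0.079. Whether some numbers share a batch or culture was not tested. The fit was tested on simulated data.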

Additional observations from a re-analysis of the deposited data

How the results depend on the processing

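Of the 9 measured members, 2 were called on withdrawal against maintained cultures and 0 at 2 h against withdrawal under each of 27 alternatives. Those 2 were Tfeb and Rragd, which that first contrast chose, so nothing is read from their calls holding there. At 4 h against withdrawal the count of 2 was 1 with a constant of 1, no filter, arrays shifted to 1 median, the mean of a gene's probe sets or no variance trend, and 0 with only the 2 groups compared or every probe set on its own. It ran from 0 to 2 with single arrays left out. At 8 h against withdrawal the count of 1 was 0 with the mean of the probe sets and 3 with array weights. At 8 h against maintained cultures the count of 1 was 0 with no filter, quantile normalization, arrays shifted to 1 median, the mean of the probe sets, no variance trend or every probe set on its own, and 2 with only the 2 groups compared or array weights. At 8 h against 2 h the count of 1 was 0 with quantile normalization, the mean of the probe sets, no variance trend or every probe set on its own. Both of these last counts ran from 0 to 1 with single arrays left out. The Tfeb difference at 8 h against 2 h, 0.08, was -0.047 with arrays shifted to 1 median, -0.086 without 2 h replicate 2 and -0.060 without 8 h replicate 2, and ran from -0.086 to 0.232 with single arrays left out. Mitf could not be tested with the dimmest 60% left out. With the replicate number as a block, the counts of members called were 2, 0, 2, 1, 1 and 1 in the 6 comparisons, the same as without it. Over all genes, array weights, the fit of only the 2 groups and single arrays each moved the counts by over 1.5 times. Other settings did so in single comparisons. At 4 h against withdrawal no filter gave 182 and no variance trend 208, beside 346. At 2 h against withdrawal no variance trend gave 9 beside 15. At 8 h against 2 h arrays shifted to 1 median gave 136 beside 242. Withdrawal against maintained cultures had 1052 calls, 2297 with weights and 313 with 2 groups. The other counts with weights and with 2 groups were 67 and 5 beside 15 at 2 h, 1609 and 13 beside 346 at 4 h and 1192 and 121 beside 313 at 8 h against withdrawal, 1280 and 180 beside 63 at 8 h against maintained cultures, and 904 and 498 beside 242 at 8 h against 2 h. With single arrays left out these counts ran from 517 (maintained replicate 3) to 1149 on withdrawal, 8 (2 h replicate 2) to 19 at 2 h, 56 (4 h replicate 2) to 620 (4 h replicate 1) at 4 h, 100 (8 h replicate 2) to 359 at 8 h against withdrawal, 13 (maintained replicate 3 or 8 h replicate 3) to 276 (withdrawal replicate 3) at 8 h against maintained cultures, and 61 (8 h replicate 2) to 430 (withdrawal replicate 3) at 8 h against 2 h. Arrays shifted to 1 median moved the median of all genes by -0.15 at 8 h against maintained cultures and by -0.13 against 2 h, and the share of calls that were higher was 29.1% instead of 52.4% on withdrawal, 89.5% instead of 65.6% at 4 h, 21.7% instead of 57.1% at 8 h against maintained cultures and 54.4% instead of 79.8% against 2 h. The causes of these moves were not tested.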
